A study of Homo sapiens with 4 samples.

Results

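The T-cell receptor complex and the surface genes of T cells were followed in the IGF2BP2-binding map of Jurkat cells, a human T-cell acute lymphoblastic leukemia (T-ALL) line. The map came from iRIP-seq, in which RNA and protein are crosslinked by UV light, IGF2BP2 is immunoprecipitated with an antibody and the RNA that comes with it is sequenced. The labels give 1 growth condition (RPMI-1640 medium with fetal bovine serum) and no genetic change or treatment, for 2 libraries of the IGF2BP2 precipitate and 2 of input RNA. The values below come from the peak list of each iRIP library, and the inputs were not analysed here. The study calls the 2 libraries replicate experiments and does not say whether their cells came from separate cultures, so their spread may be partly technical.

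The 10 genes were CD3D, CD3E, CD3G, CD247, TRAC, TRBC1, CD28, CD2, CD5 and CD7, chosen by name. A peak counted for a gene when it carried the gene's Ensembl identifier and when its main region, the one with the largest share of its length, was CDS, UTR, noncoding exon or intron. Such peaks are called sense peaks here. Each gene was found under 1 Ensembl identifier, checked by position on GRCh38, among the 20428 identifiers with a sense peak in either list. The genes held 47 sense peaks of 74237 in replicate 1 and 53 of 77288 in replicate 2, a mean of 50 ± 4.24 (SD, n = 2).

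The T-cell receptor recognises antigen through its alpha and beta chains, whose constant parts are encoded by TRAC and TRBC1. These chains have almost no tail inside the cell. The signal is passed on by CD3D, CD3E, CD3G and the zeta chain, encoded by CD247, whose tails carry tyrosine motifs that kinases phosphorylate. CD28 is the co-stimulatory receptor, CD2 an adhesion receptor, CD5 a receptor that dampens antigen receptor signals, and CD7 an early marker of the T lineage that is widely used to recognise T-ALL. IGF2BP2 is an RNA-binding protein that reads m6A-modified RNA and is known for stabilising the transcripts it binds.

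The height of a peak is given in tags, a signal for which the sources state no adjustment for the depth of the library. The lowest height listed was 4 tags in replicate 1 against 5 in replicate 2, and the highest 91 and 191 tags. How many reads stand behind each list is unknown. The authors describe removing peaks that overlapped a peak of the input, a step that could not be checked in these lists. A gene without a listed peak may thus still have had reads. With a single condition and no input values, neither the abundance of each RNA nor an enrichment over it could be given, and no test was run on these counts.

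Of the 10 genes, 8 had a sense peak in both libraries, and these included the whole receptor complex. Of the 20052 protein-coding genes in RefSeq, 41.6% had one in both, and among all identifiers with a sense peak in either list 59.5%. By position, 14037 of the 20428 identifiers could be named, among them those of all 10 genes. Protein-coding genes without a named identifier counted as having no peak, so their shares, here and below, can be too low. CD2 had peaks only in replicate 1 and CD28 only in replicate 2. In 7 of the 10 genes a peak shared at least 1 bp, strand included, with a peak of the other library, beside 14.6% of the protein-coding genes and 16.4% of the identifiers. Heights of 10 tags or more in each library were seen for CD3D and CD3E, that is 2 of the 10 genes, beside 3.71% of the protein-coding genes and 3.96% of the identifiers. RNA abundance, which could move with these shares, was not measured here, and its part was not tested.

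**Figure D1:**
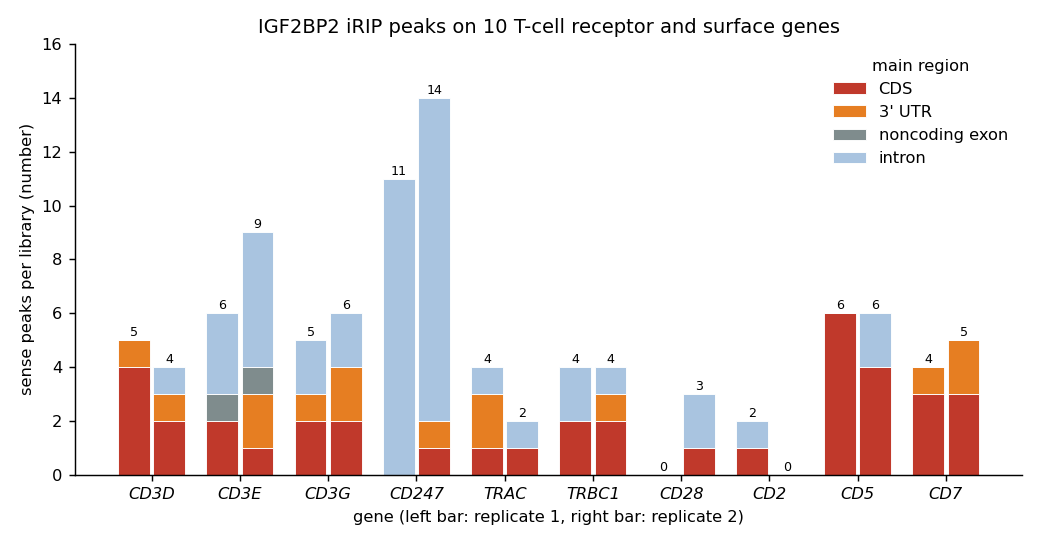
Number of sense IGF2BP2 iRIP peaks (y axis) on each of the 10 genes (x axis), with the left bar for replicate 1, the right bar for replicate 2, the total above each bar and colours for the main region of the peaks. CD247 had the most peaks (11 and 14), nearly all in introns, while CD28 in replicate 1 and CD2 in replicate 2 had none.

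The CD3 genes of chromosome 11 lie side by side within 50432 nt and held 16 sense peaks in replicate 1 and 19 in replicate 2 (mean 17.5 ± 2.12, SD, n = 2). They carried 4 of the 5 peaks of at least 10 tags that the 10 genes had in replicate 1, and all 7 of those in replicate 2. CD3D and CD3E had peaks at the same places in both libraries, whereas CD3G did not.

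CD3D (ENSG00000167286.10, minus strand, 118338954 to 118342705 in RefSeq on GRCh38.p14) had 5 sense peaks in replicate 1 and 4 in replicate 2. It was the shortest of the CD3 genes, at 3.75 kb, and had 13.3 and 10.7 peaks per 10 kb. Its highest peak in replicate 1, at 118339450 to 118339500, reached 17 tags, lay 88% in CDS and had no counterpart in replicate 2. In that library 98.8% of the identifiers with a sense peak had a lower highest peak. Near the 5′ end of the gene both libraries had a peak. It lay at 118342550 to 118342600, 0.13 kb from that end and 96% in CDS, and its height was 10 tags in replicate 1 against 13 in replicate 2. A peak at 118339750 to 118339800, 52% in CDS, had 8 and 13 tags. Over the end of the coding sequence, replicate 1 had a 6-tag peak at 118339100 to 118339200 with 39% of its length in CDS. The overlapping peak of replicate 2, at 118339100 to 118339150, lay wholly in the 3′ UTR and reached 14 tags. The remaining peaks were 118340350 to 118340450 (5 tags, mainly CDS) in replicate 1 and 118341300 to 118341350 (5 tags, intron) in replicate 2. In all, 3 peaks of each library were shared.

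CD3E (ENSG00000198851.10, plus strand, 118304730 to 118316173) had 6 sense peaks in replicate 1 and 9 in replicate 2. All 6 of replicate 1 held some coding sequence, against 5 of the 9 in replicate 2. The shared peaks were 118307250 to 118307300 with 9 and 7 tags, 118308400 to 118308450 with 10 and 6 tags, and 118312150 to 118312200 with 6 and 8 tags. The first of these was 26% CDS and 74% intron, the second 30% CDS and 70% intron, and the third 36% CDS and 64% noncoding exon, so each crossed the edge of a coding segment. The highest peak of CD3E, 118314400 to 118314500 with 22 tags, was 47% CDS and 53% intron and was listed only in replicate 2. Both 3′ UTR peaks of the gene, 118315800 to 118315900 (9.5 tags) and 118315950 to 118316000 (7 tags), also came from replicate 2 alone. In replicate 1 the nearest peak upstream of them was 118315450 to 118315500 with 10 tags.

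CD3G (ENSG00000160654.11, plus strand, 118344344 to 118355161) had 5 sense peaks in replicate 1 and 6 in replicate 2, but the libraries differed in height. In replicate 1 its heights were 4, 4, 4, 5 and 4.5 tags. In replicate 2 they were 5, 6, 10, 16, 16 and 6 tags from the 5′ to the 3′ end. Every value of replicate 1 was at or below the lowest of replicate 2, with lists that start at different heights. The 16-tag peaks lay at 118352400 to 118352450, 94% in CDS, and at 118353100 to 118353150, 64% in 3′ UTR. The 10-tag peak lay at 118351600 to 118351650, with 46% CDS. None of the peaks overlapped between libraries. The closest were CDS peaks at 118350550 to 118350600 (5 tags) in replicate 1 and at 118350600 to 118350650 (6 tags) in replicate 2, which touch without overlapping.

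**Figure D2:**
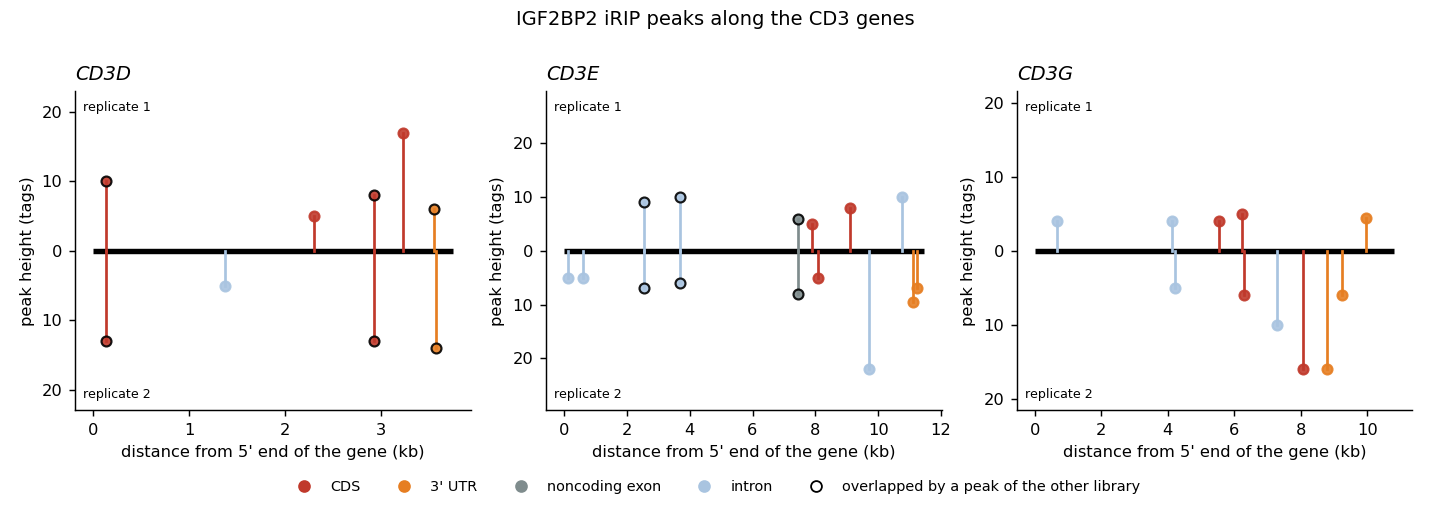
Sense peaks along CD3D, CD3E and CD3G, with the distance of the peak's centre from the 5′ end of the gene in kb on the x axis and the height in tags on the y axis, replicate 1 upward and replicate 2 downward. Colours give the main region and black rims mark peaks overlapped by a peak of the other library, of which CD3D and CD3E had 3 each and CD3G none.

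CD247 (ENSG00000198821.11, minus strand of chromosome 1, 167430640 to 167518529), the gene of the zeta chain, stood apart from the other receptor genes by its introns. It is the longest of the 10 genes, at 87.9 kb, and had 11 sense peaks in replicate 1 and 14 in replicate 2. All 11 of replicate 1 and 12 of the 14 of replicate 2 lay mainly in introns. Their centres ran from 0.354 to 58.5 kb from the 5′ end in replicate 1, and the peaks of replicate 2 from 1.55 to 87.6 kb. The heights ran from 4 to 6 tags in replicate 1 and from 5 to 7 in replicate 2, with medians of 4 and 5 tags, the lowest values the lists hold. Intron peaks at 167472800 to 167472850 (4 and 5 tags) and at 167474350 to 167474400 (4 and 6 tags) were shared. The exonic peaks came from replicate 2 only, a peak in the 3′ UTR at 167430950 to 167431000 and a peak with 54% CDS at 167433000 to 167433050, each with 5 tags. Per 10 kb CD247 had 1.25 and 1.59 peaks.

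The constant genes of the alpha and beta chains are short and had 2 to 4 sense peaks in each library. TRAC (ENSG00000277734.8, plus strand of chromosome 14, 22547506 to 22552132) had 4 sense peaks in replicate 1 and 2 in replicate 2. A peak at 22550550 to 22550600, 88% in CDS, was shared, with 7 tags in replicate 1 against 5 in replicate 2. The highest peak, 22551600 to 22551650 with 13 tags and 92% in the 3′ UTR, was found in replicate 1 alone, as was a further 3′ UTR peak of 5 tags at 22551750 to 22551800. In replicate 2 neither peak of TRAC exceeded 5 tags, the lowest height of that list.

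TRBC1 (ENSG00000211751.9, plus strand of chromosome 7, 142791694 to 142793141) had 4 sense peaks in each library. In replicate 2 only 3 of them lay in the RefSeq interval of 1.45 kb. With all 4 counted, this was 27.6 per 10 kb of that interval. A CDS peak near its 5′ end was shared, at 142791800 to 142791900 with 5.5 tags in replicate 1 and at 142791800 to 142791850 with 9 tags in replicate 2. Replicate 1 had a further CDS peak at 142792750 to 142792800 with 7 tags and replicate 2 one at 142791900 to 142791950 with 7 tags. A 3′ UTR peak of replicate 2, at 142793250 to 142793300 with 5 tags, carried the gene's identifier but lay beyond the end of the RefSeq interval. TRBC1 and TRBC2 are close copies. Since the authors kept uniquely mapped reads only, stretches identical in the copies could give no peak, and the values of both genes are uncertain. TRBC2 had 1 sense peak in replicate 1 (4 tags) and 3 in replicate 2 (highest 12 tags).

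Among the surface receptors, CD5 and CD7 had peaks in both libraries, mostly in coding sequence. CD5 (ENSG00000110448.11, plus strand of chromosome 11, 61093963 to 61127852) had 6 sense peaks in each library. All 6 of replicate 1 and 4 of replicate 2 were mainly CDS, on a gene of 33.9 kb. The shared CDS peaks were 61115050 to 61115100 with 8 and 9 tags, 61118900 to 61118950 with 4 and 7 tags, and 61122900 to 61122950 with 4 and 5 tags. No peak of CD5 reached 10 tags.

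CD7 (ENSG00000173762.8, minus strand of chromosome 17, 82314873 to 82317608) is the second shortest of the genes, at 2.74 kb, and had 4 sense peaks in replicate 1 and 5 in replicate 2, none of them in introns. Its shared peaks lay at either end of the transcript. At 82317400 to 82317450, over the start of the coding sequence (26% 5′ UTR and 74% CDS), the height was 5 tags in replicate 1 against 9 in replicate 2. In the 3′ UTR replicate 1 had a 5-tag peak at 82314900 to 82314950, overlapped in replicate 2 by one of 6.5 tags at 82314900 to 82315000. Of all 10 genes, CD7 was the only one with a shared peak that held both 5′ UTR and coding sequence.

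CD2 and CD28 had the fewest peaks. CD2 (ENSG00000116824.5, plus strand of chromosome 1, 116754430 to 116769229) had a CDS peak of 8 tags at 116768550 to 116768600 and an intron peak of 4.5 tags at 116755350 to 116755450 in replicate 1, and none in replicate 2. CD28 (ENSG00000178562.18, plus strand of chromosome 2, 203706482 to 203738912) had none in replicate 1. In replicate 2 it had a peak with 78% CDS at 203726950 to 203727000 (5 tags) and intron peaks at 203727400 to 203727450 (5 tags) and at 203729600 to 203729650 (6 tags). Neither gene thus had a peak in both libraries.

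**Figure D3:**
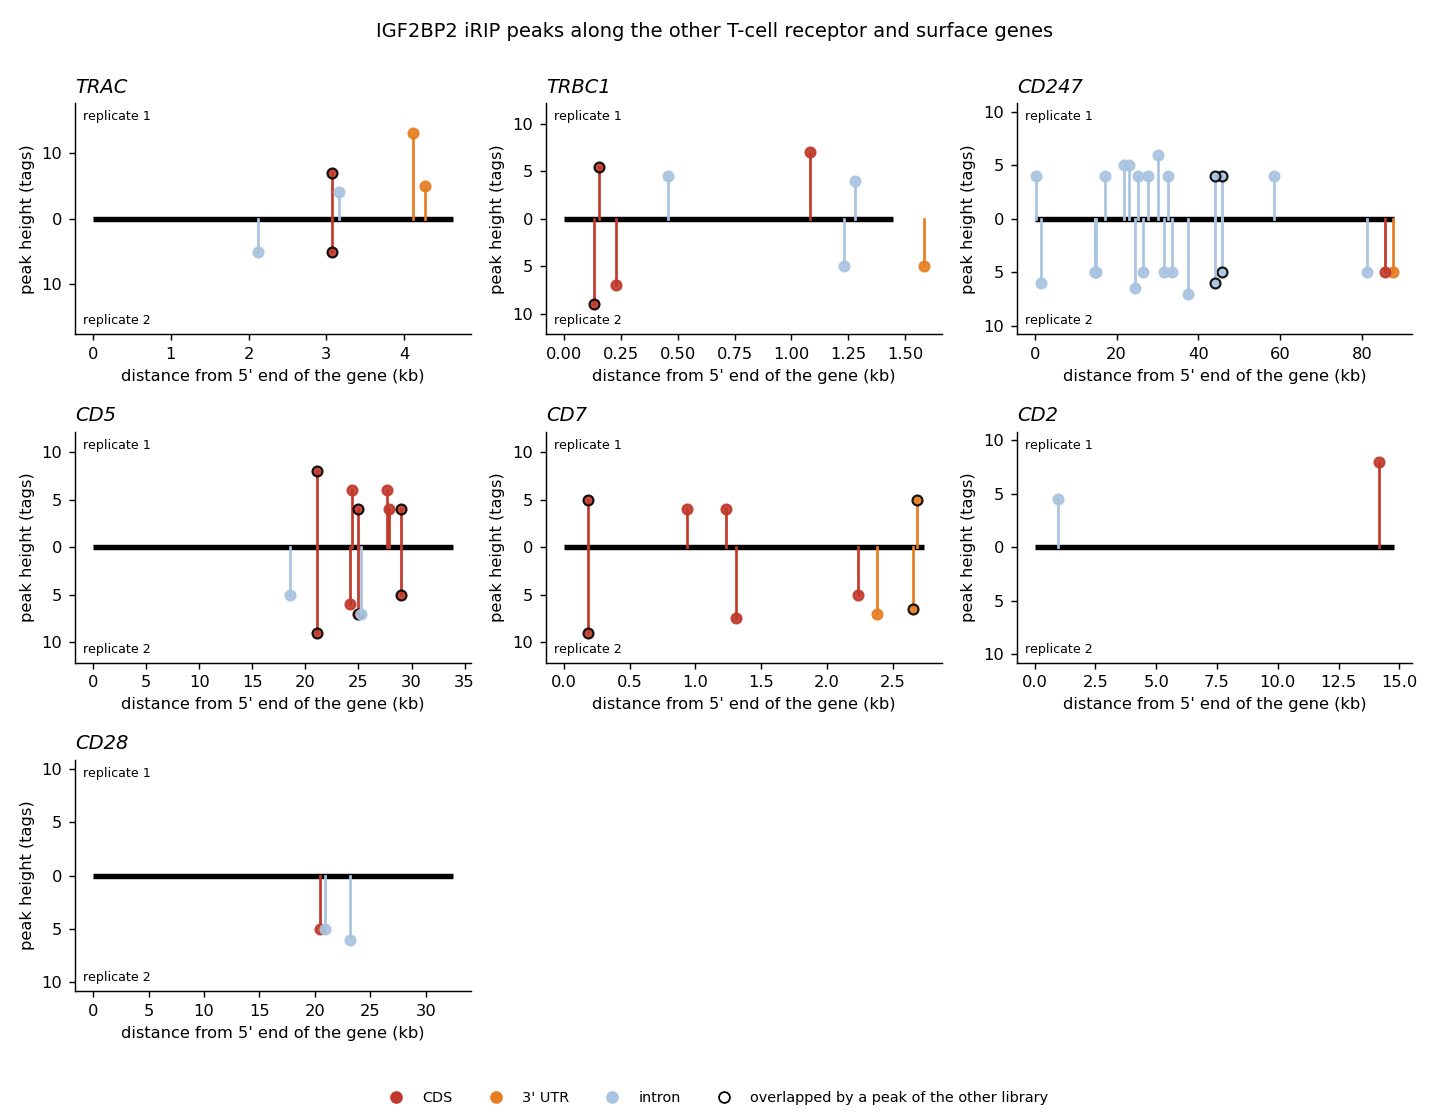
Sense peaks along TRAC, TRBC1, CD247, CD5, CD7, CD2 and CD28, with the distance of the peak's centre from the 5′ end of the gene in kb on the x axis and the height in tags on the y axis, replicate 1 upward and replicate 2 downward. Colours give the main region and black rims mark peaks overlapped by a peak of the other library, which CD2 and CD28 lacked.

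Across the 10 genes, coding sequence was the main region of 21 of the 47 sense peaks of replicate 1 (44.7%, Wilson interval at the 95% level 31.4% to 58.8%) and of 17 of 53 in replicate 2 (32.1%, 21.1% to 45.5%). Over both libraries this averaged 38.4% ± 8.91 (SD, n = 2). Over all sense peaks the share was 19.9% and 25.6%, the second of which lies within the interval of replicate 2. Introns held 20 peaks (42.6%) and 26 peaks (49.1%), against 69.2% and 62.4% of all sense peaks. The 3′ UTR held 5 peaks (10.6%, 4.63% to 22.6%) and 9 peaks (17.0%, 9.20% to 29.2%), against 3.65% and 4.0% of all sense peaks. No peak lay mainly in the 5′ UTR, which by the limit of 3 counts allows a share of up to 6.38% in replicate 1 and 5.66% in replicate 2 (upper Wilson limits 7.56% and 6.76%). Over all sense peaks that share was 2.78% and 3.33%, below these limits, so the absence shows no difference from all genes. Without CD247, which held 11 of the 20 and 12 of the 26 intron peaks, the share mainly in CDS was 58.3% and 41.0%. Peaks of a gene share its transcript and are not independent, so the intervals cover counting error only and the gap to all sense peaks was not tested.

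**Figure D4:**
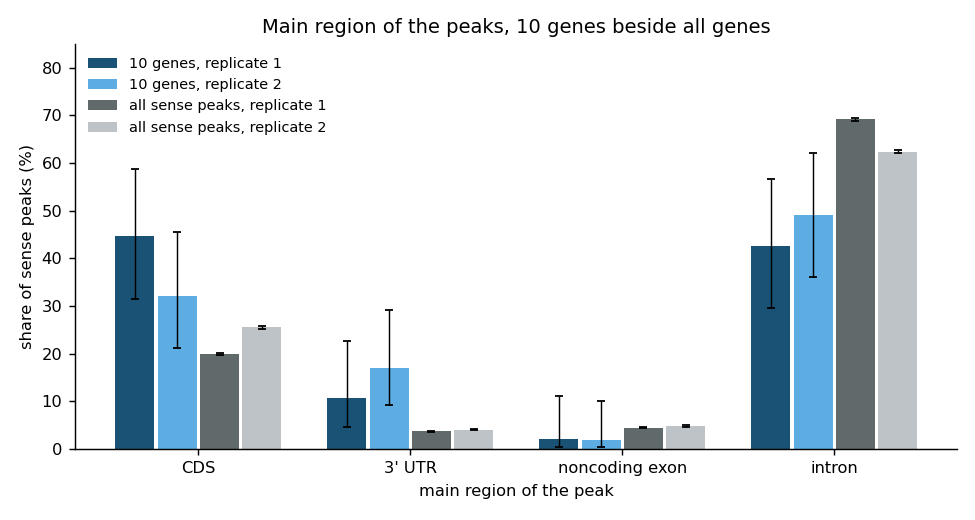
Share of sense peaks in percent (y axis) by main region (x axis) for the 10 genes and for all genes in each library, with 95% Wilson intervals as error bars. In both libraries the 10 genes had higher shares in CDS and 3′ UTR and a lower share in introns than all sense peaks together. For CDS in replicate 2 the interval of the 10 genes took in the share of all sense peaks.

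Many peaks crossed the edge of a coding segment. Peaks with both CDS and intron made up 15 of 47 (31.9%) in replicate 1 and 17 of 53 (32.1%) in replicate 2 of the 10 genes, against 15.5% and 21.0% of all sense peaks. The 10 genes also had a larger share of peaks with any CDS. Among those, 15 of 27 and 17 of 25 held intron, beside 11471 of 20394 and 16248 of 27431 over all genes. Set this way, replicate 1 was nearly the same as all genes and replicate 2 higher, which was not tested. All peaks start on a grid of 50 nt, so a peak at the end of an exon can take in intron by the grid alone.

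The heights of the 10 genes had a median of 5 tags in replicate 1, where that of all sense peaks was 4, and of 6 tags in replicate 2, where it was 5. Peaks mainly in CDS, of which the 10 genes had a larger share, were higher in general. Within them the mean height of the 10 genes was 6.40 tags against 5.87 for all genes in replicate 1. In replicate 2 it was 7.79 against 7.93, so the direction of the means differed between the libraries. The medians of the 10 genes were higher in both, 5.5 against 5 tags in replicate 1 and 7 against 6.5 in replicate 2. Heights of 10 tags or more were those of 5 peaks (10.6%) in replicate 1 and 7 (13.2%) in replicate 2, against 2.73% and 8.75% of all sense peaks. All of these belonged to CD3D, CD3E, CD3G and TRAC. The lowest height of the list was that of 18 peaks (38.3%) in replicate 1 and 24 peaks (45.3%) in replicate 2, against 66.8% and 54.4% of all sense peaks.

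Of the 47 peaks of replicate 1, 15 (31.9%, 20.4% to 46.2%) were overlapped by a sense peak of replicate 2, and 15 of the 53 of replicate 2 (28.3%, 18.0% to 41.6%) by one of replicate 1. Over all sense peaks these shares were 16.6% and 15.8%. Among peaks mainly in CDS the 10 genes lay below all genes in replicate 1 (8 of 21, 38.1%, against 45.8%) and above them in replicate 2 (8 of 17, 47.1%, against 35.0%). Among intron peaks 4 of 20 (20%, 8.07% to 41.6%) were overlapped in replicate 1 and 4 of 26 (15.4%, 6.15% to 33.5%) in replicate 2, against 7.11% and 7.12% of all intron peaks. Of these 4, the pair in CD3E held coding sequence as well, and the others were the low peaks of CD247. Of the 15 overlapping pairs, 12 were higher in replicate 2 and 3 in replicate 1. The 3 were CD3E at 118307250 and at 118308400 and the TRAC peak, and the median ratio of replicate 2 to replicate 1 over the 15 pairs was 1.30. Over the 8370 sense peaks of any gene with the same interval in both lists, the median ratio was 1.43. Of these peaks, 77.2% were higher in replicate 2. The 12 pairs of the 10 genes with the same interval had a median ratio of 1.275, and 75% were higher in replicate 2. The lists start at 4 and 5 tags, so a 4-tag peak of replicate 1 could only pair with a higher one. The starting heights thus partly set these directions.

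**Figure D5:**
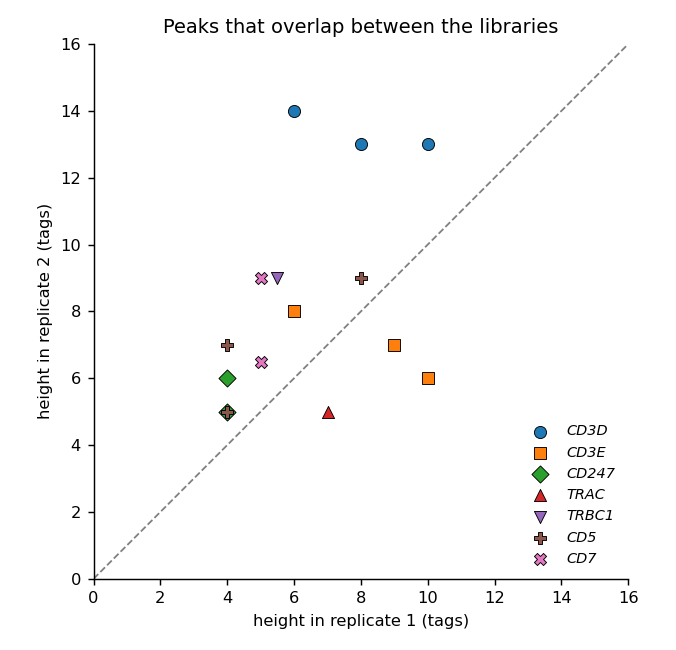
Height in tags in replicate 1 (x axis) and replicate 2 (y axis) of the 15 peaks of the 10 genes that overlap between the libraries, with the line of equal height dashed. The CD3D pairs lie highest in replicate 2, at 13 and 14 tags, and 3 pairs lie below the line; a CD5 and a CD247 pair coincide at 4 and 5 tags.

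Long genes can hold more peaks, so each gene was set beside the protein-coding genes of its own length decile in the RefSeq table, where genes without a named identifier count as having none. CD7, with a mean of 4.5 peaks, had more than 98.4% of the genes of its decile. TRBC1, with 4 (or 3.5 if assigned by position), had more than 97.8% by the count of 4. The values for the CD3 genes were 94.7% for CD3E, 94.4% for CD3D and 91.9% for CD3G. CD247 had more peaks than 90.5% of its decile, whose median was 3 peaks, TRAC than 89.8% and CD5 than 87.8%. CD2 and CD28 lay closer to the middle, at 65.0% and 61.6%. The decile median was 0 peaks for CD7, TRBC1, CD3D and TRAC, so many genes set beside these had no peak. It was 0.5 for CD3E, CD3G and CD2, and 1 for CD5 and CD28. Per 10 kb the 10 genes had a median of 5.78 peaks, against 0.490 in the 11761 protein-coding genes with a sense peak in either list, which are longer (median 42.3 kb against 11.1 kb).

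Other genes of the T-cell surface were read from a list of 32. Of these, 16 (50%) had a sense peak in both libraries, a share between the 41.6% of protein-coding genes and the 59.5% of identifiers. A further 4 had one in a single library and 12 in neither list, among which 3 had peaks in their interval that could not be named. ITGA4 and ITGAL, integrin chains used in T-cell adhesion, had the most peaks, 21 and 32 for ITGA4 and 23 and 24 for ITGAL. PTPRC, the CD45 phosphatase that sets the activity of the receptor-proximal kinases, had 12 and 22 peaks, and SPN, the sialoglycoprotein CD43, had 16 and 18. Of the 32 genes, 5 reached 10 tags in each library, where the shares over all genes were 3.71% and 3.96%. The pre-T-cell receptor chain gene PTCRA had no sense peak in its interval in either list.

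Peaks were also counted on markers of other blood cells beside the T-cell genes. Of 6 myeloid markers 1 had a sense peak in both libraries and of 4 NK-cell markers 2 (50%), again beside 41.6% of protein-coding genes and 59.5% of identifiers. The NK-cell share is thus near the background. The B-cell gene PAX5 had 5 peaks in each library, with at most 6 tags. CD14, CD33, LYZ, HBB, HBA1, ALAS2 and CD79B had no sense peak in their interval in either list.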

How the data were processed

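Jurkat RNA crosslinked to IGF2BP2 was sequenced after immunoprecipitation (iRIP-seq). Per the labels, reads were aligned with TopHat2 to GRCh38. By the paper's methods, the authors kept uniquely mapped reads, called peaks library by library with ABLIRC and discarded those overlapping a peak of the input. The deposited signal is the height in tags, with no adjustment for depth stated, and 98.6% and 97.2% of heights are whole numbers. The deposited p-value of a peak was used only as a filter. The region shares of each peak are the authors' own, and where shares were equal the first listed was taken. Positions are given as listed and read as half-open intervals, since the region shares of the shortest peaks are all multiples of 1 in 50.

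Identifiers were named by position in a RefSeq gene table (GRCh38.p14). A name was given where a single protein-coding or constant-region gene, with 1000 nt added on each side, took in 80% or more of the identifier's CDS and UTR peaks. Identifiers with intron or noncoding peaks only needed a single gene of any type around every peak. In all 14037 of 20428 identifiers were named. The genes and lists were chosen with earlier results of these data known. The genes named outside the 10 are the 4 with the most peaks of the list of 32, and others were singled out after their values were seen. Values are counts with 95% Wilson intervals, and no test between groups was run, since the input lists were not analysed here. The functions for naming and overlap were tested on simulated data. RefSeq promoter windows were held for 4 of the 10 genes and contained no peak, so no sequence is shown. Alternatives were minimum heights of 10 and 5 tags, a p-value under 0.001, exonic peaks only, assignment by position, weighting by length, other definitions of overlap and each replicate left out. Scripts ran in Python 3.11.15 (matplotlib 3.10.9, scipy 1.17.1, pandas 2.3.3, numpy 2.4.6). Counts over the B-cell and erythroid marker lists are not reported here.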

Additional observations from a re-analysis of the deposited data

How the results depend on the processing

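With at least 10 tags, 2 of the 10 genes had a peak in both replicates, the mean number of sense peaks was 6 and the overlapped share in replicate 1 was 20%. With a p-value under 0.001, 5 genes had a peak in both replicates, the mean number was 18 and the share mainly in CDS was 53.8%. With exonic peaks only, the mean number was 27 and the share mainly in CDS was 70.4%, because intron peaks leave the total, and 7 genes had a peak in both, without CD247. The cause of the other changes was not tested beyond the smaller number of peaks. At 5 tags in both lists 8 genes had a peak in both, the mean number was 39.5 and the share mainly in CDS 44.9%. Assignment by position gave 8 genes, a mean of 50 and 38.4%. Weighting by length gave a CDS share of 36.7%. The overlap was 28.3% to 42.3% under the alternatives other than 10 tags. With either replicate alone 9 genes had a peak, the number of peaks was 47 to 53 and the CDS share 32.1% to 44.7%. At 10 tags in both lists the share was 3.71% of protein-coding genes and 3.96% of identifiers. For the other settings no share over all genes is given, so their gene counts cannot be set beside a background. Heights near the lowest of each list limit what CD247, CD28, and CD3G and CD7 in replicate 1 can show, and the depth of the libraries is unknown. No paired analysis was possible because the input libraries, which share the replicate numbers, were not analysed here and no test was run.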

Other observations

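Peaks on the opposite strand of the genes were fewer than their sense peaks, with no share over all genes to set beside them. CD3G had 2 antisense peaks in each library, CD247 had 1 in replicate 1 and 2 in replicate 2, CD5 had 2 in replicate 2 only, and the other genes had none, a total of 3 and 6. Their heights were 4 and 5 tags. The interval of CD5 also held peaks on the opposite strand that the lists class as intergenic, at 61095950 to 61096000 (5 tags) and 61097750 to 61097800 (7 tags), both in replicate 2. In replicate 2, intergenic peaks on the strand of TRBC1 lay 344 nt (6 tags) and 144 nt (8 tags) before its start, and replicate 1 had none on that strand there.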
